A study of Mus musculus with 15 samples.

Results

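The genes described here encode the proteins of the mitochondrial ribosome, chosen as every protein-coding gene whose symbol starts with Mrpl or Mrps followed by a number. This rule uses names only, and it took 78 of the 55573 genes in the table, 49 named Mrpl and 29 named Mrps. Of these, 51 encode proteins of the large subunit and 26 proteins of the small subunit. The symbols do not follow the subunits exactly, since Mrps30 and Mrps18a are named for the small subunit but their proteins sit in the large one. Mrps36 is named like a ribosomal protein, and its product is a subunit of the 2-oxoglutarate dehydrogenase complex of the citric acid cycle.

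Counts of RNA-seq reads were analysed in 15 trigeminal ganglia (TG) of CD1 mice, the sensory ganglia whose neurons innervate the cornea. All mice had the same lesion of the right cornea, in which a 2-mm trephine marked the centre and the epithelium and anterior stroma were removed, and the right TG was taken on day 12. The eye received vehicle (replicates 1 to 5), resolvin D6 (RvD6, named RvD6-standard in the labels, replicates 6 to 10) or its stereoisomer RvD6si (RvD6-isomer, replicates 11 to 15), 3 times per day. The study's methods describe male mice 10 weeks old, and the lipid dose of this experiment is not given in the sources used here. No uninjured TG is among the samples, so each comparison is between injured animals. Nothing in the sources says that samples of a group were processed separately, so p-values measure the spread between these samples, which may in part be technical.

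The mitochondrial ribosome translates the 13 mRNAs of the mitochondrial genome, all of which encode subunits of the respiratory chain and of ATP synthase. Its 2 rRNAs, mt-Rnr1 and mt-Rnr2, are transcribed inside the organelle, while all of its proteins are encoded in the nucleus, made in the cytosol and imported. Sensory neurons have long axons with a high demand for ATP. In a whole ganglion, fewer cells of a type and less RNA per cell cannot be told apart.

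The members are spread over 17 chromosomes. Their promoters are shown because genes with similar changes may share promoter letters, and because 33 members (42.3%) have a protein-coding neighbour on the opposite strand whose start lies within 1000 bases, a head-to-head arrangement found for 14.7% of the 13723 protein-coding genes tested. RefSeq promoter windows of the GRCm38.p6 build, from 250 bases before to 50 bases after the start, were at hand for 69 of the 78 members. The 6 windows below belong to Mrpl28, the member with the smallest p in RvD6si against vehicle, to the members with the smallest p whose window held an NRF1, an ETS or a YY1 core, and to Mrps11 and Mrpl46, which are transcribed away from each other. Capitals mark matches, on either strand, to 4 short motifs: GCGCATGC, the core bound by nuclear respiratory factor 1 (NRF1), CCGGAAG, the core of ETS factors such as GABP, AAGATGGC, the core of YY1, and the GC box GGGCGG.
Mrpl28, chr17:26123253-26123552, plus strand: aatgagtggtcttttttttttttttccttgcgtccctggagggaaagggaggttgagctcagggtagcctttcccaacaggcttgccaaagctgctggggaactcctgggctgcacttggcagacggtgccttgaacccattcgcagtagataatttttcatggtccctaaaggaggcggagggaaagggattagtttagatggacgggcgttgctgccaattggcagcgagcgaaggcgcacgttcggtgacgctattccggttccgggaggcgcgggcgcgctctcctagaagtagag
Mrpl32, chr13:14612988-14613287, minus strand: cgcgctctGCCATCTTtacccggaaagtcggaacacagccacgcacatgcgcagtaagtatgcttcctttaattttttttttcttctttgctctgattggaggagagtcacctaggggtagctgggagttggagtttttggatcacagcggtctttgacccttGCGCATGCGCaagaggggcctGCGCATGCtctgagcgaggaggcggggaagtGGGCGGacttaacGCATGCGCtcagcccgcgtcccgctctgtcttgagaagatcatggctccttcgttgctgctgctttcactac
Mrpl18, chr17:12916042-12916341, minus strand: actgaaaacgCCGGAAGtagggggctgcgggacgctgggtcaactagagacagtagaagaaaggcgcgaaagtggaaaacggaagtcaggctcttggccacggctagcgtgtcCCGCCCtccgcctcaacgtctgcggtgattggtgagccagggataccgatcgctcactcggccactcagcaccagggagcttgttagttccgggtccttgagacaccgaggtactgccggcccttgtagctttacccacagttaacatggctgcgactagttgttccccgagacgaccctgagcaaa
Mrpl36, chr13:73330759-73331058, plus strand: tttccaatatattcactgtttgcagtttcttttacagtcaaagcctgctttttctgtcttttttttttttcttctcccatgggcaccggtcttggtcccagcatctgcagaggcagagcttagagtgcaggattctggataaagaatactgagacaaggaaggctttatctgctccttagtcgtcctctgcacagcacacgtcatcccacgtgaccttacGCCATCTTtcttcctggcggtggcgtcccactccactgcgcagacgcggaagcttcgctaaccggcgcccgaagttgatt
Mrps11, chr7:78782881-78783180, plus strand: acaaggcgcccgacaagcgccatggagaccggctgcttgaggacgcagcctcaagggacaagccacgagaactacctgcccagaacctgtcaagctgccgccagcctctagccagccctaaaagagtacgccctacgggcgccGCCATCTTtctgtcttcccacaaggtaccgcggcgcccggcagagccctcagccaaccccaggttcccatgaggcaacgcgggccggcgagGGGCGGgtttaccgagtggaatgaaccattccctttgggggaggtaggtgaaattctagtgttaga
Mrpl46, chr7:78783040-78783339, minus strand: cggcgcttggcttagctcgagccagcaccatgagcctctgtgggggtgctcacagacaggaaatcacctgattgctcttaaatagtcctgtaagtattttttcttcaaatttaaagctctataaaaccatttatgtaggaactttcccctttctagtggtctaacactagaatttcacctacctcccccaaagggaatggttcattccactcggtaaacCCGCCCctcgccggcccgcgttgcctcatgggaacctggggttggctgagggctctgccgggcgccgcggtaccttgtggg

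The NRF1 core reads nearly the same on both strands, and its matches may overlap, as they do in the Mrpl32 window, which holds 4 NRF1 matches, 1 YY1 match and 1 GC box. The Mrpl36 window holds 1 YY1 core, the Mrpl18 window 1 ETS core and 1 GC box, and the Mrpl28 window none of the 4. The Mrps11 and Mrpl46 windows overlap by 141 bases, and the GC box marked in each is the same site read from opposite strands. Over the 75 windows of members, the ETS core was in 34.7%, against 15.7% of 13720 windows of protein-coding genes tested and 8.86% of all 32851 windows in the RefSeq table. The YY1 core was in 16% of member windows, against 3.97% and 2.75%, and the NRF1 core was in 10.7%, against 4.85% and 2.71%. The GC box was in 52% of member windows, against 60.4% and 35.7%. These matches describe letters in the windows and say nothing of binding.

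Per exon length, the members differed widely in level. On the scale of CPM (a gene's reads relative to all reads of the library, after TMM scaling), divided by kilobases of exon, the mean level over 15 samples ran from 1.03 for Mrpl33 to 101 for Mrpl41, with a median of 14.4. That median lay above 77.6% of all 16567 genes tested, and 74 of the 77 members tested lay above the median of all genes, 4.29. The 4 highest members were Mrpl41, Mrpl28 at 89.7, Mrps12 at 63.1 and Mrpl36 at 53.6. Mrpl41 is a protein specific to mitochondria, Mrps12 is the homologue of the bacterial decoding-centre protein S12, and Mrpl36 is the counterpart of bacterial L36. The 4 lowest were Mrpl33, Mrpl23 at 2.31, Mrpl1 at 3.57 and Mrps35 at 4.96. Exon length here is that of all annotated transcripts merged, 607 to 8631 bases, so a gene with many annotated transcripts gets a low level per kilobase. The median level was 15.9 for members of the large subunit and 11.6 for members of the small subunit.

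**Figure D1:**
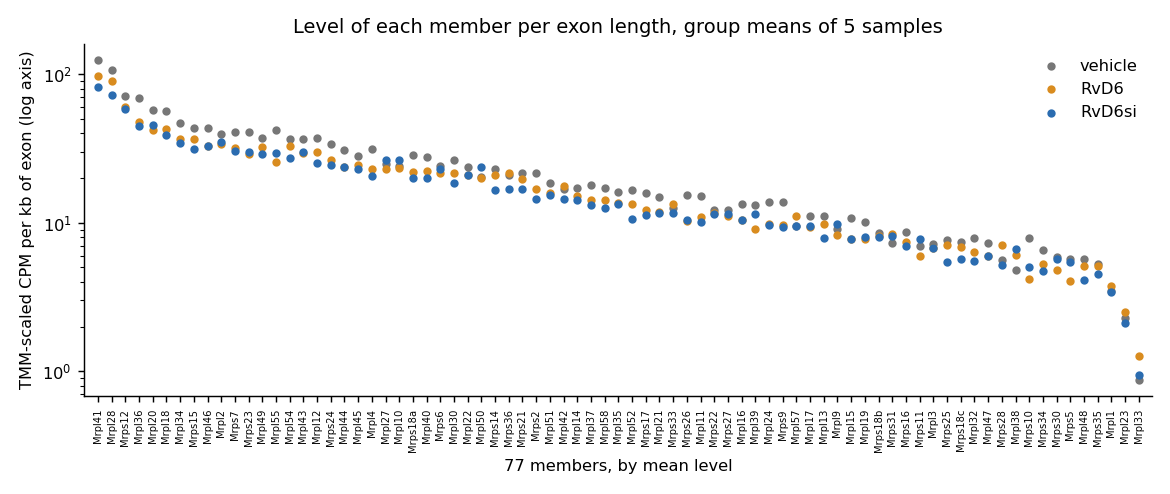
Level of each of the 77 members tested, as TMM-scaled CPM per kilobase of exon on a log axis, with 1 dot per group for the mean of 5 samples. Mrpl41 and Mrpl28 are highest and Mrpl33 is lowest, and among the members at the left the vehicle dot lies above those of RvD6 and RvD6si.

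Replicates were close for most members. The coefficient of variation of CPM over the 5 vehicle samples had a median of 14.5% and a range of 4.33% to 45.6%, and after RvD6 and RvD6si its median was 18.6% and 21.9%. Mrpl53 was the only member not tested, with 1 read in each of 4 libraries and none in the other 11. In its case 88.0% of the exon bases are shared with Ccdc142os and Gm42688, and whether this set its count was not tested. Another 9 members share 20% or more of their exon bases with another gene, among them Mrps34 (77.8%, with Mapk8ip3 and Nme3), Mrps25 (69.8%, with Nr2c2), Mrps18b (30.5%) and Mrps18c (23.2%), and their counts are uncertain for that reason, since the library preparation keeps no strand.

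The first comparison asks which TG genes differ after RvD6si. No member passed an adjusted p of 0.05 in RvD6si against vehicle by edgeR's quasi-likelihood test over all genes (0 of 77, with 0.67% of all genes called in either direction). The members nevertheless lay to one side. Of the 77, 69 had a log2 fold change below 0, and the median was -0.35, a level 21.5% lower, where the median of all genes was 0.02. At an unadjusted p of 0.05, 33 members (42.9%) were lower, against 7.3% of all genes, and 0 were higher, against 8.69% of all genes. DESeq2, the tool of the study's methods, called 15 of the 76 members it gave an adjusted p lower at 0.05, or 19.7%, against 3.05% of all genes. In 12 members (15.6%) every RvD6si sample lay below every vehicle sample, as it did in 2.46% of all genes.

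The sum of all 78 members shows the size of the shift in each library. In the vehicle samples it was 3634, 3613, 4122, 3922 and 4077 CPM. In the RvD6si samples it was 2634, 3052, 3094, 3044 and 3229 CPM, and in the RvD6 samples 3522, 2812, 3515, 3016 and 3039 CPM. The lowest vehicle sample was above the highest sample of either treated group, and the RvD6 and RvD6si ranges overlapped. Counted gene by gene, 59 to 68 of the 77 members lay below their vehicle mean in each RvD6si sample, 49 to 71 in each RvD6 sample and 24 to 55 in each vehicle sample. RvD6 replicate 7 had the most members below the vehicle mean, and vehicle replicate 3 the fewest. As a share of raw counts, members took 0.359% to 0.392% in vehicle, 0.286% to 0.338% in RvD6 and 0.272% to 0.345% in RvD6si libraries.

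**Figure D2:**
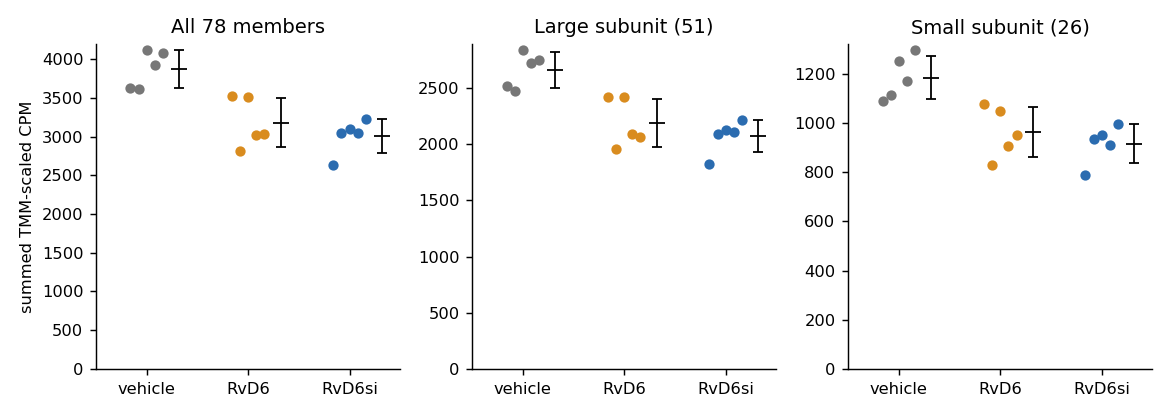
Summed TMM-scaled CPM of all 78 members, of the 51 members of the large subunit and of the 26 members of the small subunit. Each dot is 1 ganglion, and the bar beside it gives the mean and SD of 5 samples. In each panel the vehicle dots lie above the RvD6 and RvD6si dots.

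Mrpl28, a large-subunit protein kept from bacteria (chr17:26123500-26126613 in GRCm38), had the smallest p. Its level was 139.5, 124, 159.7, 152 and 158 CPM in vehicle and 86.3, 101, 97.1, 118 and 100.4 CPM in RvD6si. The groups did not overlap. The log2 fold change was -0.54 (95% interval -0.83 to -0.25), with an adjusted p of 0.067 by edgeR and 0.0041 by DESeq2.

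Mrpl18, a protein of the central protuberance (chr17:12911349-12916345), was even across vehicle replicates at 81.2, 80.7, 80.7, 75.5 and 74.1 CPM. It measured 48.6, 50.2, 64.0, 46.8 and 60.9 CPM in RvD6si, all below vehicle. The log2 fold change was -0.54 (95% interval -0.82 to -0.25), with an adjusted p of 0.070 by edgeR and 0.0030 by DESeq2. Mrpl12, which forms the stalk that recruits translation factors and is also known to bind the mitochondrial RNA polymerase, lies at chr11:120484613-120489065. It was 56.6, 59.0, 61.3, 52.5 and 53.4 CPM in vehicle and 36.8, 47.3, 34.8, 31.6 and 43.0 CPM in RvD6si, again without overlap. Its log2 fold change was -0.55 (95% interval -0.87 to -0.22), with an adjusted p of 0.095 by edgeR and 0.012 by DESeq2.

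The large-subunit genes Mrpl13, Mrpl15 and Mrpl30 differed in their spread. Mrpl13 (chr15:55534094-55557748) was 97.0, 87.6, 98.4, 81.5 and 78.7 CPM in vehicle and 55.0, 60.4, 64.0, 59.4 and 73.0 CPM in RvD6si, and the groups did not overlap. Its log2 fold change was -0.51 (95% interval -0.82 to -0.20; adjusted p = 0.10 by edgeR and 0.013 by DESeq2). Mrpl30 (chr1:37890477-37898535) was 81.2, 87.8, 90.3, 93.7 and 72.8 CPM in vehicle and 56.4, 50.1, 61.4, 54.3 and 75.0 CPM in RvD6si. Only RvD6si replicate 15 reached into the vehicle range. Its log2 fold change was -0.52 (95% interval -0.83 to -0.21; adjusted p = 0.095 by edgeR). Mrpl15 (chr1:4773206-4785739) was 70.3, 88.1, 104, 93.9 and 100.3 CPM in vehicle and 48.8, 52.3, 83.6, 76.4 and 66.2 CPM in RvD6si, so the groups overlapped. The log2 fold change was -0.48, with a wider 95% interval of -0.91 to -0.05 and an adjusted p of 0.26 by edgeR.

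The others among the 8 members with the smallest p were Mrpl41, Mrpl36 and Mrpl32, with log2 fold changes of -0.60, -0.62 and -0.52 and adjusted p of 0.095, 0.098 and 0.10 by edgeR. Mrpl41 was 103, 85.8, 112, 128 and 124 CPM in vehicle and 53.9, 76.6, 77.5, 60.0 and 96.7 CPM in RvD6si, where replicate 15 reached above the lowest vehicle sample. Mrpl36 was 75.2, 59.8, 75.3, 76.0 and 114 CPM in vehicle and 49.2, 70.2, 46.4, 40.9 and 52.6 CPM in RvD6si. RvD6si replicate 12 lay above the lowest vehicle sample, and the other 4 RvD6si samples lay below all vehicle samples. Mrpl32, which must be cleaved after import before it joins the ribosome, was 33.8, 40.1, 36.1, 43.6 and 43.0 CPM in vehicle and 22.8, 27.5, 26.6, 29.3 and 30.8 CPM in RvD6si, without overlap.

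DESeq2 called the 8 members with the smallest p and also Mrps17, Mrpl48, Mrpl4, Mrps18a, Mrps9, Mrps2 and Mrps14. Of the 15 it called, 8 were large-subunit proteins with a bacterial counterpart, 3 large-subunit proteins specific to mitochondria and 4 small-subunit proteins with a bacterial counterpart.

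Only 8 members had a log2 fold change above 0, and none was at an unadjusted p under 0.05. The largest value was that of Mrpl38, a central protuberance protein (chr11:116131817-116138868), at 0.47 (95% interval -0.09 to 1.04). Its level was low, 16.01, 9.56, 10.7, 15.9 and 8.94 CPM in vehicle and 19.01, 21.9, 13.7, 10.7 and 19.7 CPM in RvD6si. RvD6si replicates 11, 12 and 15 lay above all vehicle samples, and replicates 13 and 14 lay within the vehicle range. Mrpl50 and Mrps31 followed at 0.23 and 0.16.

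**Figure D3:**
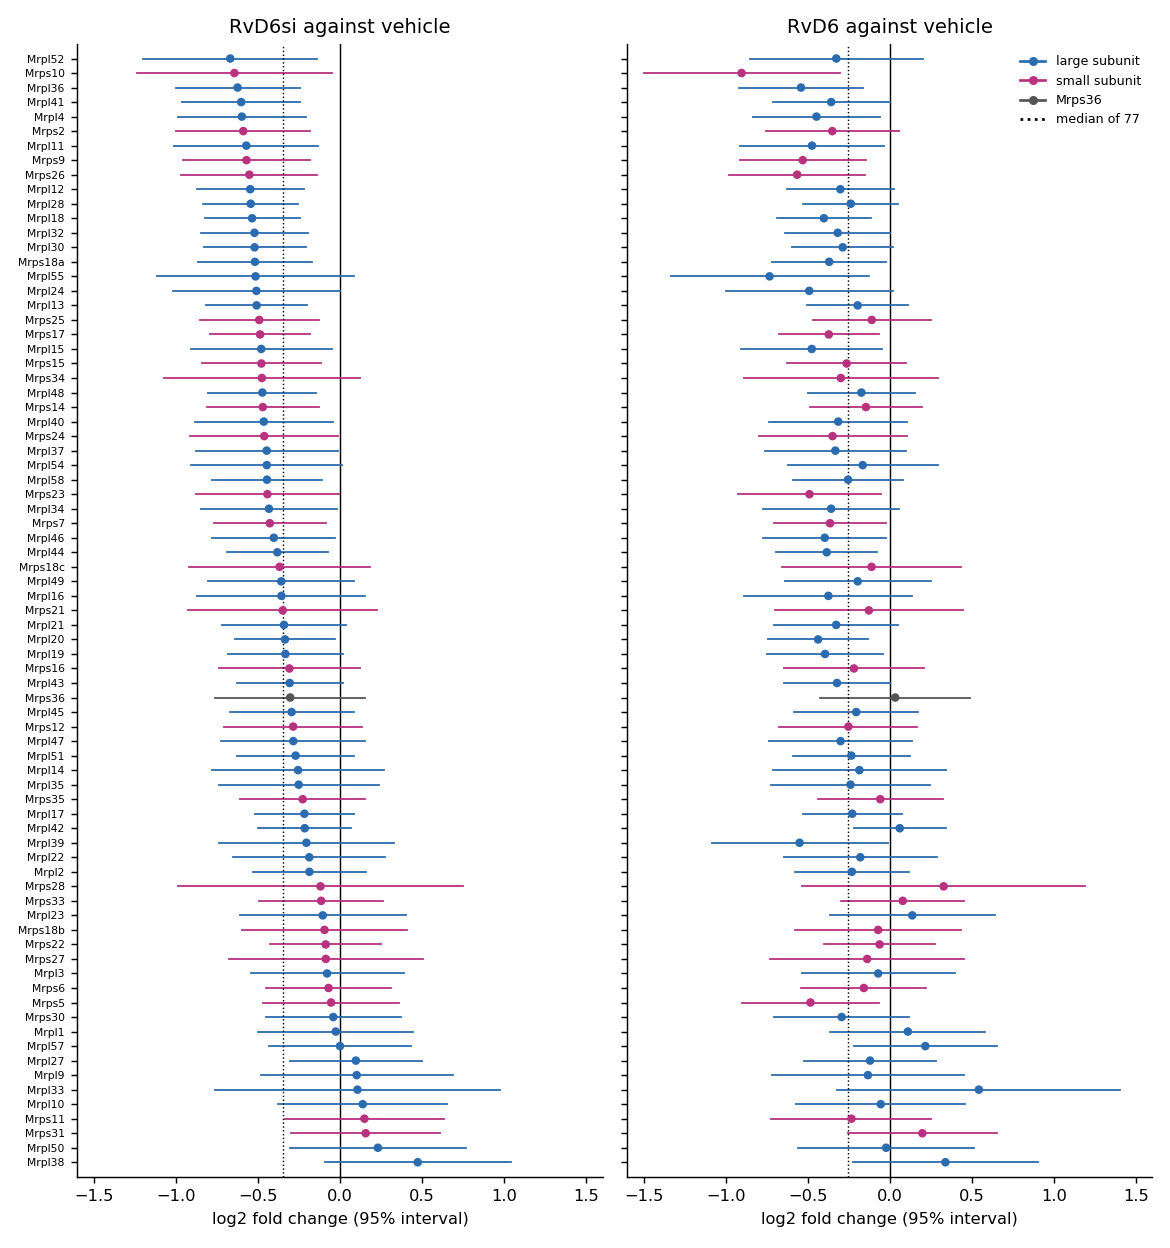
Log2 fold change of each of the 77 members tested, with its 95% interval, for RvD6si against vehicle (left) and RvD6 against vehicle (right). Members are in the order of the left panel, colours mark the subunit and dotted lines mark the medians of -0.35 and -0.25. Both comparisons use the same 5 vehicle samples.

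Both subunits lay at the same median in RvD6si against vehicle, -0.35 for the 50 large-subunit members tested and -0.36 for the 26 of the small subunit, with 22 and 11 lower at an unadjusted p of 0.05. Large-subunit proteins with a bacterial counterpart had a median of -0.34 (13 of 30 lower at that p), those specific to mitochondria -0.37 (9 of 20), small-subunit proteins with a bacterial counterpart -0.40 (8 of 16) and those specific to mitochondria -0.17 (3 of 10). None of these differences between classes was tested. By place in the ribosome, 5 of 7 proteins of the central protuberance and 2 of 3 of the stalk were lower at that p. So were 1 of 3 around the decoding centre and mRNA entry, and 1 of 6 around the exit tunnel, where the new chain leaves the ribosome. Over all members the share was 42.9%, and over all genes 7.3%. The central protuberance also had 2 genes above 0 and the stalk 1, while all genes of the decoding and exit tunnel sites lay below 0. The sites hold few genes, and differences between them were not tested. Among the S18 paralogues, Mrps18a in the large subunit was at -0.52 (95% interval -0.87 to -0.17), Mrps18c at -0.37 (-0.92 to 0.18) and Mrps18b at -0.09 (-0.60 to 0.41). Mrps30 was at -0.04, Mrps12 at -0.29 and Mrps36, the dehydrogenase subunit, at -0.30, each with an interval that included 0. Mrpl58, a peptidyl-tRNA hydrolase built into the large subunit, was at -0.45 (95% interval -0.78 to -0.11), and its RvD6si samples all lay below vehicle.

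Members with more counts lay lower, a difference that was not tested. Among the 38 with higher mean CPM (42.8 to 124) the median was -0.45 and 25 were lower at an unadjusted p of 0.05, and among the 39 with lower mean CPM (4.65 to 42.3) the median was -0.21 and 8 were lower. The median SE of the log2 fold change was 0.17 in the first and 0.22 in the second.

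The next comparison asks the same of RvD6, the reference stereoisomer. By edgeR 0 of 77 members passed an adjusted p of 0.05, as did 0% of all genes tested. At an unadjusted p of 0.05, 19 members (24.7%) were lower, against 5.99% of all genes, and 0 were higher, against 7.63%. DESeq2 with all samples called 0 members, where it called 0.479% of all genes lower. In 2 members, Mrpl18 and Mrpl46, every RvD6 sample was below every vehicle sample, a share of 2.60% against 1.62% of all genes. The median of the members was -0.25, and 67 of 77 lay below 0. The count at unadjusted p was 12 members without RvD6 replicate 7 and 11 without vehicle replicate 5. The share of all genes lower in those fits is not given here.

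Mrps10, a small-subunit protein with a bacterial counterpart (chr17:47368887-47381417), had the smallest p. It was 63.2, 69.4, 79.8, 39.0 and 65.2 CPM in vehicle and 23.1, 26.2, 46.0, 44.0 and 30.6 CPM in RvD6. Vehicle replicate 4 lay within the RvD6 range. The log2 fold change was -0.90 (95% interval -1.50 to -0.31; adjusted p = 0.19 by edgeR).

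Mrpl18 was 65.3, 66.8, 49.3, 60.0 and 55.3 CPM in RvD6, all below vehicle, with a log2 fold change of -0.40 (95% interval -0.69 to -0.11; adjusted p = 0.22 by edgeR). Mrpl20, a large-subunit protein with a bacterial counterpart, was 102, 73.8, 109.9, 94.4 and 95.1 CPM in vehicle and 69.4, 64.3, 65.9, 76.8 and 74.5 CPM in RvD6, and vehicle replicate 2 lay within the RvD6 range. Mrpl36, Mrpl20 and Mrps9, a mitochondrial counterpart of bacterial S9, were at -0.54, -0.44 and -0.53, with adjusted p of 0.21, 0.21 and 0.22 by edgeR. Mrpl28 and Mrpl13 were at -0.24 and -0.20, with intervals that included 0, and Mrpl15 was at -0.48 (95% interval -0.91 to -0.04).

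**Figure D4:**
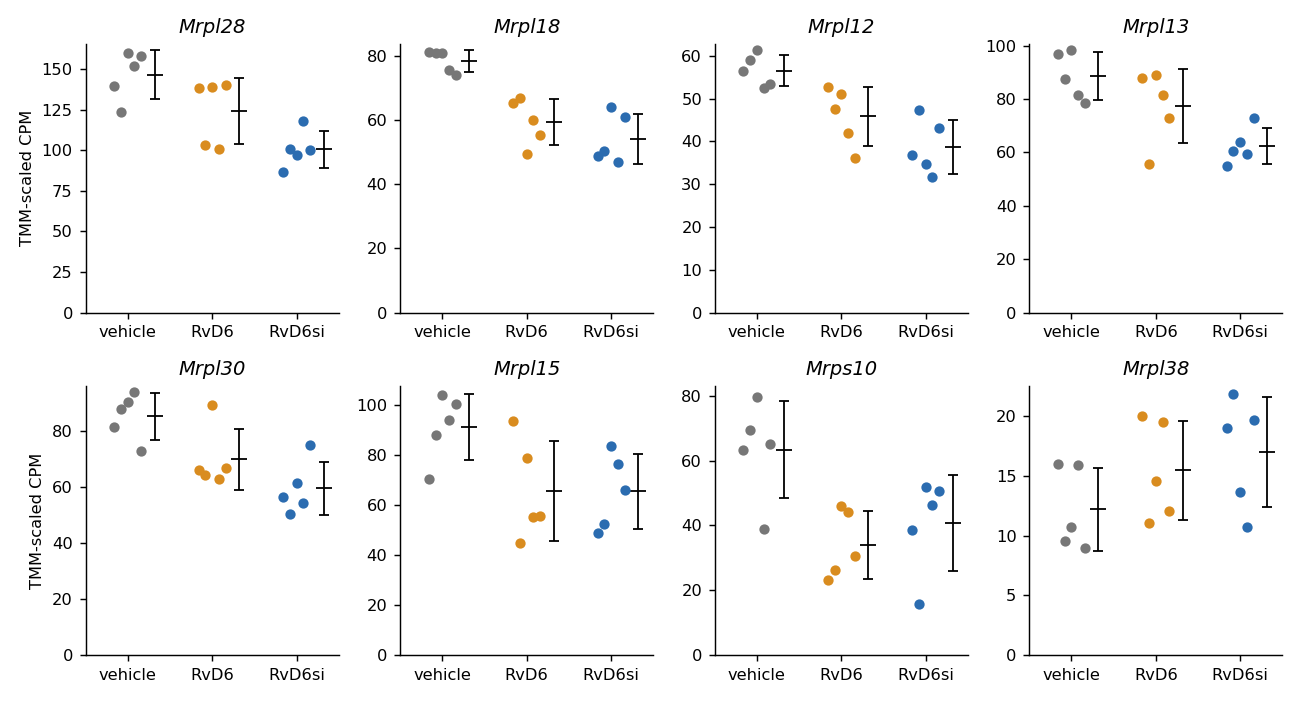
TMM-scaled CPM of 8 members in each ganglion, with the mean and SD of 5 samples beside the dots. RvD6si dots of Mrpl28, Mrpl18, Mrpl12 and Mrpl13 lie below all vehicle dots, and those of Mrpl30, Mrpl15, Mrps10 and Mrpl38 overlap with vehicle.

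The stereoisomers were compared directly at the same time and number of applications, since a change in one comparison and not in the other does not show that they differ. Of the 77 members tested, 0 passed an adjusted p of 0.05 by edgeR, where 0.235% of all genes did, and 0 passed by DESeq2. At an unadjusted p of 0.05, 3 were lower in RvD6si, a share of 3.90% against 4.64% of all genes, and 1 was higher, 1.30% against 4.18%. The median of the members was -0.08. For 75 of 77 members the 95% interval lay within a log2 fold change of 1 in either direction, and for 27 within 0.5, and differences within those bounds were not resolved.

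The members lower in RvD6si than in RvD6 at an unadjusted p were Mrpl28, at -0.31 (95% interval -0.60 to -0.02), Mrps25, at -0.38 (-0.75 to -0.02), and Mrpl13, at -0.31 (-0.62 to -0.0024). After RvD6, Mrpl13 was 88.0, 55.7, 89.05, 81.6 and 72.8 CPM, and 3 of these 5 values lay within the vehicle range. The 1 higher member was Mrps5, a protein near the mRNA entry of the small subunit, at 0.43 (95% interval 0.01 to 0.85). It was 24.4, 38.1, 25.9, 22.6 and 22.6 CPM in RvD6 and 48.0, 27.7, 35.9, 32.2 and 36.5 CPM in RvD6si, and only RvD6 replicate 7 stood away from its group. Adjusted p by edgeR was 0.53 for Mrpl28 and Mrps25, 0.55 for Mrps5 and 0.56 for Mrpl13.

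Markers of other tissues moved with the groups and are given as measured. Skeletal muscle markers summed to 110 to 2467 CPM in RvD6 libraries, highest in replicates 8 and 9. They summed to 48.0 to 183 CPM in vehicle and 35.6 to 74.2 in RvD6si. All 7 tested were higher in RvD6 than in vehicle at an unadjusted p of 0.05, with a median log2 fold change of 4.16. Of these 7, edgeR called 0 and DESeq2 called 6. In RvD6si against RvD6 all 7 were lower at that p, with 5 called by edgeR and 6 by DESeq2. Red blood cell markers summed to 5720 to 10513 CPM in RvD6, 2379 to 5052 in vehicle, 935 to 2605 in 4 of the RvD6si samples and 11959 in RvD6si replicate 15, and all 5 were higher in RvD6 than in vehicle at an unadjusted p of 0.05, with a median log2 fold change of 1.46 and 0 called by edgeR or DESeq2. Bone marrow precursor markers summed to 692 to 2243 CPM in RvD6 and 1967 in RvD6si replicate 15. They summed to 54.4 to 126 CPM in the other RvD6si samples and 110.2 to 590 in vehicle. All 9 were higher in RvD6 than in vehicle at an unadjusted p of 0.05, with a median log2 fold change of 2.54. Of these 9, 0 were called by edgeR or DESeq2. No marker of these 3 lists was at 0 in every sample of a group. Without RvD6 replicates 8 and 9, chosen after the markers were seen, 16 members were lower in RvD6 at an unadjusted p of 0.05. In that fit 902 of all genes tested were lower, and the median of the members was -0.29. Without RvD6si replicate 15, 33 members were lower in RvD6si and their median was -0.38. Pituitary markers summed to 9.97 to 3745.5 CPM in vehicle, 226 to 2299.5 in RvD6 and 19.9 to 656.5 in RvD6si. The highest library was vehicle replicate 3. In RvD6 against vehicle, 3 of 5 lay above 0 and 2 below, with 0 called by edgeR and 1 by DESeq2. Without vehicle replicate 3, 23 members were lower in RvD6si and 13 in RvD6 at an unadjusted p of 0.05. The members' medians were -0.31 and -0.23. The share of all genes lower in the fits without 1 library is not given here, so those counts stand without a background. Macrophage markers overlapped between the groups, at 62.0 to 100.1 CPM in vehicle, 65.3 to 123 in RvD6 and 50.6 to 107 in RvD6si.

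Markers of the ganglion's own cells were detected in every group, and some of them were also lower after treatment. Sensory neuron markers summed to 12817 to 14536 CPM in vehicle, 7791 to 13682 in RvD6 and 11399.8 to 15468 in RvD6si. In RvD6 against vehicle all 10 had a log2 fold change below 0, with a median of -0.34 and 4 lower at an unadjusted p of 0.05, where the median of the members was -0.25. In RvD6si against vehicle their median was -0.01, with 5 of 10 below 0 and 0 at an unadjusted p under 0.05. Satellite glia markers summed to 6677 to 8054 CPM in vehicle, 4850 to 6559 in RvD6 and 4449 to 6466 in RvD6si, so that both treated groups lay wholly below vehicle, as they did for the sum of the members. Of these 5 markers, 2 were lower in RvD6si and 1 in RvD6 at an unadjusted p of 0.05, with medians of -0.10 and -0.21. In each comparison 3 of the 5 had a log2 fold change below 0 and 2 above 0. Myelinating Schwann cell markers overlapped, at 13660 to 21455 CPM in vehicle, 11798 to 17893 in RvD6 and 12804 to 21354 in RvD6si. The part of any of these markers in the shift of the members was not tested. Depth ran from 4125962 to 9903396 counts, with medians of 9147139 in vehicle, 7235362 in RvD6 and 6862705 in RvD6si.

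Other gene groups of similar function or size showed shifts of the same order. In RvD6si against vehicle, genes of complex I subunits, named Nduf, had a median of -0.39 with 21 of 37 lower at an unadjusted p of 0.05, proteasome subunit genes -0.34 with 21 of 38, and genes of cytosolic ribosomal proteins -0.35 with 23 of 81. In RvD6 against vehicle these groups had medians of -0.24, -0.31 and -0.03, with 6, 21 and 1 lower. Among all genes, 7.3% were lower in RvD6si and 5.99% in RvD6 at that p. Members are shorter than most genes, with a median exon length of 2533 bases against 3968 for all genes tested. Over all genes, the log2 fold change and exon length had a Spearman correlation of 0.29 in RvD6si and 0.25 in RvD6, while over the 77 members it was 0.05 in RvD6si, as a description across genes that share the same libraries. With the length trend removed, the median of the members was -0.26 in RvD6si and -0.21 in RvD6. At an unadjusted p of 0.05, 24 and 15 members were then lower, as were 1083 and 1040 of all 16567 genes.

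Genes that share a start region with a member had a median nearer 0, with values spread to both sides. There were 27 head-to-head neighbours that were tested and are not members. Their median log2 fold change in RvD6si against vehicle was -0.06, with values from -1.29 for Hira to 1.42 for Apba3. At an unadjusted p of 0.05, 4 neighbours were lower and 2 higher, against 7.3% and 8.69% of all genes. The members facing them had a median of -0.37 with 11 lower. Mrpl36 and its neighbour Ndufs6, a complex I subunit whose start lies 29 bases away, were at -0.62 and -0.48. That distance uses the GENCODE start of Mrpl36, chr13:73328513, which lies outside the RefSeq window of Mrpl36 shown above. Mrpl30 was at -0.52 and Mitd1, 66 bases away, at 0.08. Mrpl32 was at -0.52 and Psma2, a proteasome subunit 75 bases away, at -0.09. Other close neighbours lay far from 0. Mrpl54 was at -0.45 and Apba3, the closest neighbour at 26 bases, at 1.42. Mrpl49 was at -0.36 and Fau, 59 bases away, at -0.45. Within the Mrps11 and Mrpl46 pair, whose promoter windows are shown above, Mrpl46 was at -0.40 with all 5 RvD6si samples below vehicle, and Mrps11 was at 0.15 (95% interval -0.34 to 0.63). These genes share exon bases with each other, 12.2% of Mrpl46 and 7.97% of Mrps11. Some other pairs also share exons, such as Mrpl18 with Tcp1 (10.1%) and Mrpl43 with Twnk (33.4%). Since the library keeps no strand, reads there cannot be assigned by strand.

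**Figure D5:**
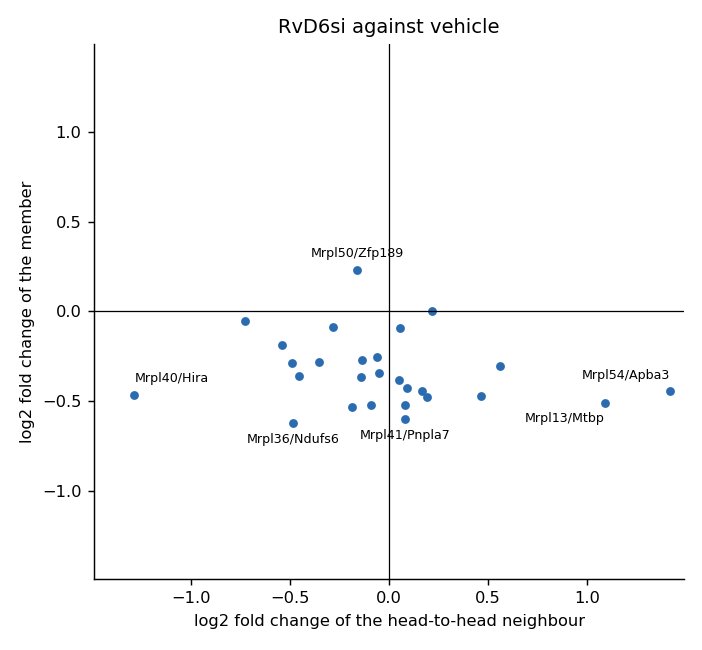
Log2 fold change in RvD6si against vehicle of each member (vertical axis) and of its head-to-head neighbour (horizontal axis), for neighbours that were tested and are not members. Most points lie below the horizontal line, and they spread to both sides of the vertical line.

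By promoter motif, the median in RvD6si against vehicle was -0.14 for the 8 members tested whose window held the NRF1 core and -0.36 for the 60 without it, -0.31 and -0.38 for the ETS core (25 and 43 members), -0.39 and -0.34 for the YY1 core (12 and 56), and -0.31 and -0.35 for the GC box (34 each). These differences were not tested.

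The other genes of mitochondrial translation included some in each direction. In RvD6si against vehicle, 7.3% of all genes were lower and 8.69% higher at an unadjusted p of 0.05. Of 10 translation factor genes, 2 were lower at an unadjusted p of 0.05 in RvD6si against vehicle, namely Mrrf, the ribosome recycling factor, at -0.69 (SE 0.23) and Mtif2, an initiation factor, at -0.82 (SE 0.28), with adjusted p of 0.14 and 0.15 by edgeR and 0.047 and 0.046 by DESeq2, which called both. Of 23 assembly factor genes, 5 were lower and 1 higher, led by Mrm3, which methylates the large rRNA, at -0.88 (SE 0.24, adjusted p = 0.082 by edgeR and 0.0094 by DESeq2), and Mtg1, a GTPase of large-subunit assembly, at -0.67 (SE 0.24, adjusted p = 0.18 by edgeR and 0.076 by DESeq2). Of 17 mitochondrial tRNA synthetase genes, 2 were lower (11.8%) and 2 higher, counts near the shares of all genes. The higher were Iars2, which charges isoleucine tRNA, at 1.07 (SE 0.24, adjusted p = 0.051 by edgeR and 0.0018 by DESeq2) and Aars2, which charges alanine tRNA, at 0.72 (SE 0.31, adjusted p = 0.27 by edgeR and 0.15 by DESeq2).

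Of the 5 ribosomal proteins with other names, Ptcd3 was higher, at 0.78 (SE 0.27, adjusted p = 0.16 by edgeR and 0.061 by DESeq2), none was lower, and Chchd1 was at -0.43 (SE 0.24). Of 5 tested genes for transcription of mitochondrial DNA and stability of its RNA, Lrpprc was higher, at 0.44 (SE 0.18), and Tfb2m lower, at -0.52 (SE 0.23), with adjusted p of 0.23 and 0.27 by edgeR and 0.12 and 0.16 by DESeq2. None of 8 regulators of mitochondrial biogenesis was at an unadjusted p under 0.05, and the smallest p were those of the nuclear receptor Esrra, at 0.66 (SE 0.37), and Gabpb1, a subunit of GABP, at 0.55 (SE 0.41).

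The rRNAs of the ribosome differed between the stereoisomers. mt-Rnr2, the large-subunit rRNA, measured 41300.4 ± 3951 CPM in vehicle, 54558 ± 7668 in RvD6 and 29616 ± 3117 in RvD6si (SD, n = 5). It was lower in RvD6si than in vehicle, with a log2 fold change of -0.48 (adjusted p = 0.036 by edgeR). In RvD6 against vehicle it was at 0.40 (adjusted p = 0.13 by edgeR and 0.037 by DESeq2). It was lower in RvD6si than in RvD6, at -0.88 (adjusted p = 0.0013 by edgeR). mt-Rnr1, the small-subunit rRNA, was lower in RvD6si than in RvD6, at -1.01 (adjusted p = 0.039 by edgeR), and at -0.68 against vehicle (adjusted p = 0.10 by edgeR and 0.028 by DESeq2). In RvD6si against vehicle, 4 of the 13 mitochondrially encoded mRNAs (30.8%) were lower at an unadjusted p of 0.05, against 7.3% of all genes. Among them, mt-Co3 was at -0.35 and mt-Nd4l at -0.61. At that p, 7.63% of all genes were higher in RvD6 against vehicle, as were 4 of the 13 mRNAs. DESeq2 called 1 of these, mt-Nd5, at 0.42 (adjusted p = 0.13 by edgeR and 0.015 by DESeq2). The medians of the 13 against vehicle were -0.10 in RvD6si and 0.33 in RvD6. Compared directly, all 13 had a log2 fold change below 0 in RvD6si against RvD6, with a median of -0.43. At an unadjusted p of 0.05, 9 (69.2%) were lower, against 4.64% of all genes. None was called by edgeR, and DESeq2 called mt-Co3, at -0.59 (adjusted p = 0.093 by edgeR and 0.0084 by DESeq2), and mt-Nd5, at -0.50 (adjusted p = 0.060 by edgeR and 0.0017 by DESeq2). Reverse transcription was primed with oligo-dT, so these values depend on how well each mitochondrial RNA was primed and may not reflect its total amount. The library keeps no strand, so reads from the opposite strand may be counted too.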

How the data were processed

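RNA-seq counts per gene in 15 TG of CD1 mice (5 per group) were used as the authors deposited them: raw counts, not normalized. The authors reverse transcribed 1 ng of total RNA with oligo-dT by an adapted Smart-seq2 protocol, made Nextera XT libraries, aligned reads to GRCm38 (GENCODE release M22) with Rsubread in R 3.6.1 and counted them with featureCounts (Subread 1.6.5 in their notes, 1.5.0-p1 in the file header). The amplification keeps no strand and has no molecular identifiers, and priming from poly(A) depends on RNA integrity. Gene names were taken from GENCODE M21, which named 55480 of the 55573 gene IDs, and all 78 members matched in ID and version. No pair of libraries within a group agreed within sampling noise (pairs across groups were not compared).

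The counts were fitted with edgeR 4.0.16 in R 4.3.3 (TMM scaling, filterByExpr with a minimum count of 10, quasi-likelihood F test) over all 15 samples and 16567 genes, with 1 coefficient per group. P-values were adjusted by Benjamini-Hochberg over all genes tested, with a threshold of 0.05, SE was the log2 fold change divided by the square root of F, and intervals are at 95%. DESeq2 1.42.0 was an alternative, as were fits on 2 groups, RLE scaling, no filter, removal of the trend with exon length or GC content (lowess, span 0.3) and leaving out each sample. A group difference was called without overlap when all 5 values lay beyond all 5 others. Fits were tested on simulated data. Named members are Mrpl13, Mrpl15 and Mrpl30, the members with the 8 smallest p in RvD6si and 5 in RvD6 against vehicle and 3 between the lipids, the 4 highest and 4 lowest per exon length, the 3 largest changes of opposite sign, 8 members of known role, those not tested, and for each related list the genes past the threshold or the 2 with the smallest p; Mrpl46, Mrps11 and the head-to-head pairs were named after their values were seen, as were Mrps34 and Mrps17, Mrpl48, Mrpl4, Mrps2 and Mrps14, which complete short counts. The members, lists and tests were chosen with earlier results of these data known. The labels give no sequencing batch.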

Additional observations from a re-analysis of the deposited data

Results flagged for a closer look

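In each group of 5 samples, a sample was singled out where its gap to the nearest other sample was more than 0.71 of the group's range. This was so in 6 of 87 groups of values, and chance alone gives about 1 in 20. Mrpl23 was low in vehicle replicate 2, at 7.45 CPM. Mrpl30 was high in RvD6 replicate 8, at 89.2 CPM, where the other RvD6 samples lay at 62.9 to 66.8 CPM. Mrpl33, the member with the lowest level per exon length, was high in vehicle replicate 5, at 10.5 CPM, and in RvD6si replicate 15, at 16.8 CPM. Mrps18b was high in RvD6si replicate 12, at 23.4 CPM, and Mrps5 in RvD6 replicate 7, at 38.1 CPM. The cause was not tested.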

How the results depend on the processing

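No paired analysis was possible because the labels number the replicates 1 to 15 without a number shared between groups. For RvD6si against vehicle, no member was called at an adjusted p of 0.05 by edgeR under each choice that kept all samples. DESeq2 called 15 members with all samples and 14 with 2 groups, where it called 903 and 964 genes in either direction. With 1 sample left out, edgeR called 0 to 1 members, Mrpl28 without RvD6 replicate 9 and Mrpl36 without RvD6si replicate 12. In these fits 23 to 34 members were at an unadjusted p under 0.05, and the median was -0.41 to -0.30. The share of all genes at that p in fits with 1 sample left out is not given here. Removing the length trend moved that median to -0.26. For RvD6 against vehicle, DESeq2 with 2 groups called 3 members (Mrps10, Mrps9 and Mrpl20), where it called 686 genes in either direction. With 1 sample left out, edgeR called 0 members, 11 to 24 members were at an unadjusted p under 0.05 and the median was -0.32 to -0.21. The count of members without overlap was 1 under RLE scaling against 2 with TMM. For RvD6si against RvD6, the 4 members at an unadjusted p under 0.05 became 7 and 2 with DESeq2 (all samples and 2 groups), 0 with edgeR on 2 groups, 2 with the GC trend removed and 1 without a filter. With 1 sample left out they were 0 to 6, with a median of -0.13 to -0.02 and 0 called. For named members, 23 single values passed the threshold under DESeq2 and 2 with 1 sample left out, and no called value changed sign. The cause of these changes was not tested. With 5 samples a group, the median half-width of a member's 95% interval was 0.42 on the log2 scale, wider than the median difference of -0.35.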
